A study of Sus scrofa with 6 samples.

Results

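Of 10 imprinted genes listed from outside the UBE3A region, 8 had a row under their own name among the 28965 genes of the tables: MEST, DIRAS3, PEG3, PEG10, SGCE, DLK1, PLAGL1 and GRB10. The names GNAS and NNAT matched no row (2 of the 10) and were not analysed here. The genes were taken by name and not by a cut on a measured value, but earlier results of these data were known. They were followed in poly(A) RNA of the cervical spinal cord, taken from males at the age of 140 days. In 3 pigs a deletion of UBE3A had been inherited from the mother, so that the paternal copy remained, and 3 animals were wild type. Each animal gave 1 library, made from 20 mg of bulk tissue. The extent of the deletion, the breed and the level of the cord are not given in the labels, and the titles also carry the word brain. In bulk tissue, fewer cells of a type and less RNA per cell cannot be told apart.

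Imprinted genes are transcribed from one parental allele, chosen by DNA methylation laid down in the egg or the sperm. Many of them govern fetal growth, and a number stay active in brain and spinal cord. UBE3A itself is imprinted in neurons, where the maternal allele is used and the paternal one is silenced by an antisense transcript. The genes described here lie in other imprinted domains. MEST, DIRAS3, PEG3, PEG10, SGCE, DLK1 and PLAGL1 are known as paternally expressed genes, and GRB10 uses the maternal or the paternal allele depending on the tissue in mouse. The exon reads add both alleles together, so the values below are totals and not allelic levels. Imprinted domains hold many antisense and overlapping transcripts, and no source says whether the counting used strand. If it did not, the values of PEG3, MEST or RTL1 may include reads of a transcript on the opposite strand.

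Libraries held 17181003 to 22492366 exon reads. Levels are CPM on TMM-scaled totals, the share of a library's reads that a gene took, unless TPM is named. UBE3A checked the labels: it stood at 21.4, 27.1 and 21.4 CPM in deletion replicates 1 to 3, against 57.0, 65.5 and 60.6 CPM in wild-type replicates 1 to 3. Its log2 fold change, deletion over wild type, was -1.39 (SE 0.13), with a Benjamini-Hochberg adjusted p of 0.0253 by edgeR's quasi-likelihood test. All matched markers of neurons, motor neurons, oligodendrocytes, astrocytes and microglia had reads. The summed levels of some marker lists differed between the groups. The summed level of 10 neuron markers was 7861 to 17295 CPM in deletion animals and 1484 to 5531 CPM in wild type, with none of the 10 past the threshold given below. NEFL and NEFH weighed most, with means of 4043 and 3418 CPM in the deletion against 1109 and 826 CPM in wild type. The groups overlapped for SYT1, at 38.9, 33.8 and 87.5 CPM in deletion replicates 1 to 3, against 43.7, 35.2 and 34.0 CPM in wild type. Each other neuron marker was higher in every deletion animal than in any wild-type animal. The 12 meninges and fibroblast markers summed to 3167 to 4347 CPM in deletion animals and 5589 to 6512 CPM in wild type. Of these markers, 7 fell. APOD weighed most in this sum and was level, with means of 3107 CPM in the deletion and 3163 CPM in wild type. The sum therefore understates the fall of the collagen genes, such as COL1A1 with means of 149 and 1059 CPM. Smooth muscle and mural markers, 8 in number, summed to 202 to 262 CPM in deletion animals and 502 to 2739 CPM in wild type, and 3 fell. Wild-type replicate 3 stood apart. Mitochondrial mRNAs made up 5.88% of its reads, against 9.01 to 12.4% in the other libraries, and its neuron sum was the lowest. Its level of the neuron marker RBFOX3, 11.2 CPM, was however the highest of wild type.

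None of the 8 genes passed the threshold of an adjusted p under 0.05 in edgeR's quasi-likelihood test, while 1.02% of the 14566 genes tested did. At an unadjusted p under 0.05 there were 2, MEST and DIRAS3, where 20.2% of all genes stood. DESeq2 called 1, MEST, among 8.9% of all genes, and limma voom with quality weights called 0, with 3.01% of all genes called. The log2 fold change was positive for 5 of the 8 and negative for 3, with a median of 0.22, and over all tested genes 56.7% were positive with a median of 0.05. Groups were fully separated for MEST, higher in the deletion, and for PLAGL1, lower in the deletion, while 15.2% of all genes lay wholly above wild type and 11.2% wholly below.

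**Figure D1:**
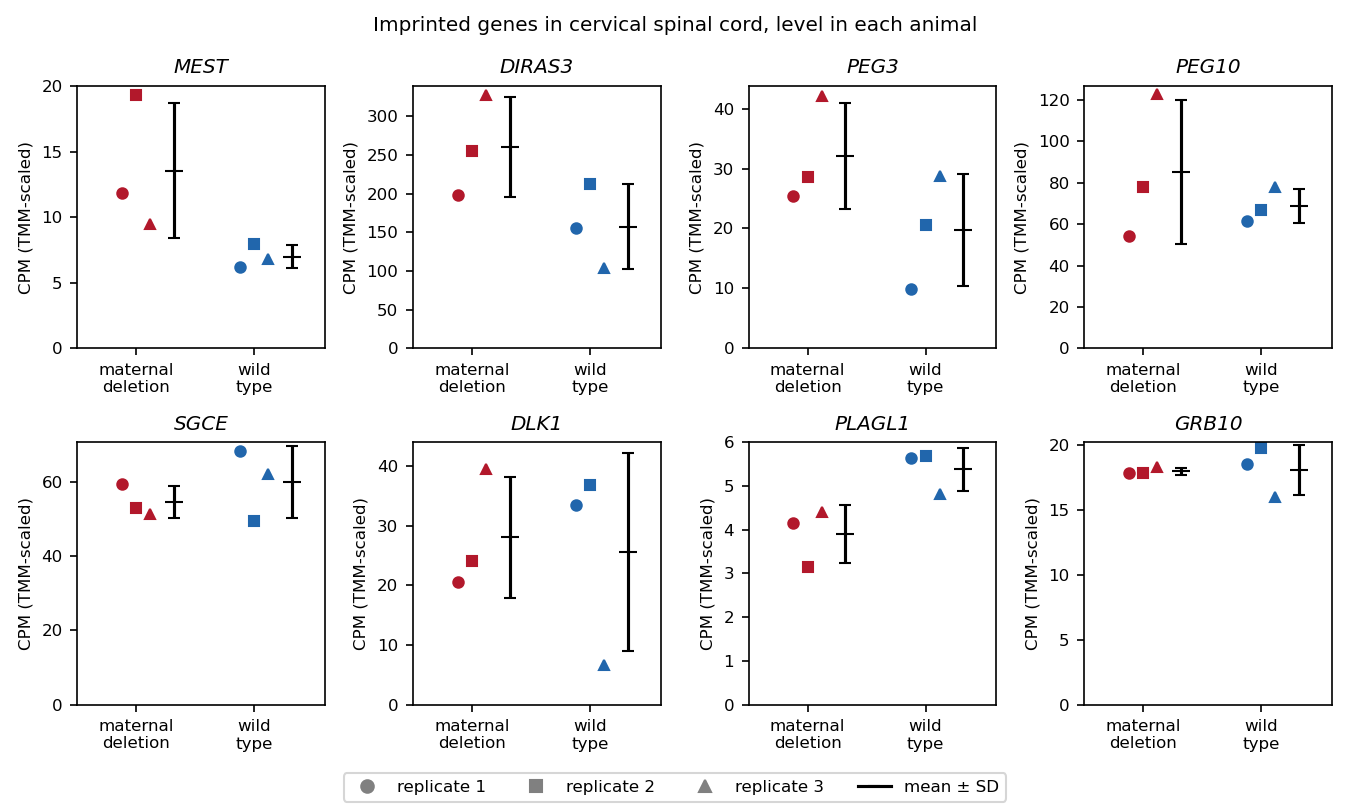
Level of each of the 8 imprinted genes (CPM on TMM-scaled totals, each axis from 0) in 3 maternal deletion animals and 3 wild-type animals, with the group mean and SD beside the points. MEST lies wholly above and PLAGL1 wholly below its wild-type values, while DLK1 spans 6.56 to 36.9 CPM within wild type.

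Per length, the order of abundance was similar from animal to animal. Deposited TPM, which corrects for exon length, put DIRAS3 first in every animal, at 113 to 199 TPM in the deletion and 70.4 to 126 TPM in wild type. SGCE came next with 39.8 to 46.5 TPM in deletion animals and 40.2 to 58.0 TPM in wild type. PEG10 stood at 22.1 to 53.5 TPM in the deletion and 23.7 to 38.0 TPM in wild type, and passed SGCE in deletion replicate 3 alone. The ranges of PEG3 and DLK1 overlapped widely, with 16.3 to 28.7 TPM for PEG3 and 12.7 to 26 TPM for DLK1 in deletion animals, and 6.0 to 21.9 TPM for PEG3 and 4.84 to 23.7 TPM for DLK1 in wild type. GRB10 held a narrow band of 8.94 to 10.2 TPM in the deletion and 9.09 to 10.7 TPM in wild type. PLAGL1 and MEST were the least abundant in every animal, and their order differed between the groups. The ratio of MEST to PLAGL1 TPM was 1.41, 3.04 and 1.06 in deletion replicates 1 to 3, against 0.547, 0.692 and 0.703 in wild type. This ratio needs no scaling between libraries. It was chosen after the values were seen and is given without a test.

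**Figure D2:**
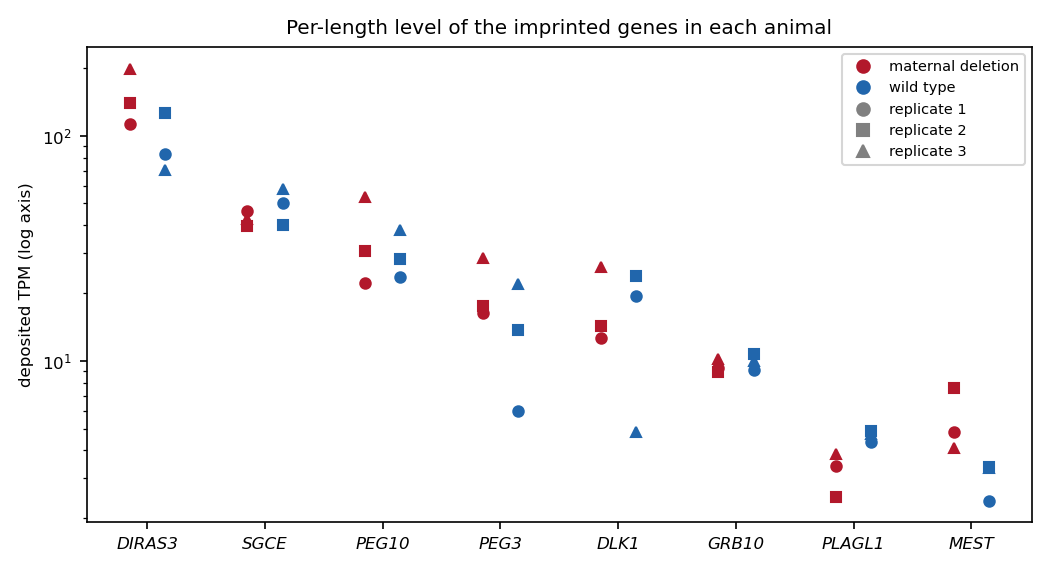
Deposited TPM of the 8 genes on a log axis, ordered by the median over the 6 animals, with deletion animals left of wild type for each gene. DIRAS3 is highest in all animals, and MEST lies above PLAGL1 in each deletion animal but below it in each wild-type animal.

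MEST encodes a protein of the alpha/beta hydrolase fold and is a classic paternally expressed gene of mesoderm and placenta in mouse. It stood at 11.8, 19.4 and 9.46 CPM in deletion replicates 1 to 3, against 6.22, 7.94 and 6.84 CPM in wild type. The lowest deletion animal was above the highest wild-type animal, and deletion replicate 2 was far above the other two of its group. Means were 13.6 ± 5.17 CPM in the deletion and 7.0 ± 0.873 CPM in wild type (SD, n = 3 each), a fold of 1.93 with a 95% interval of 1.24 to 3.00. The log2 fold change was 0.95 (SE 0.27; edgeR quasi-likelihood adjusted p 0.115), and 0.61 (SE 0.21; adjusted p 0.325) without deletion replicate 2. Permuting the 6 log2 levels exactly, two-sided, gave p = 0.1, the lower limit for groups of 3. DESeq2 gave 0.91 (adjusted p 0.0349), and the authors' deposited table lists 1.95-fold with a false discovery rate of 0.0194, where 7.2% of its genes with a rate lie under 0.05. Within the ID prefixes of the animals the ratio of deletion to wild type was 1.90 for prefix 14, 1 animal each, and 1.95 for prefix 15, 2 animals each. MEST had 106 to 369 exon reads per library, the smallest depth of the 8 genes after the 60 to 131 reads of PLAGL1.

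MEST and the neuron sum, in which NEFL and NEFH weighed most, were both higher in the deletion animals, but their order matched only in part. The 3 deletion animals ranked alike for both, with 9343, 17295 and 7861 CPM of neuron markers in deletion replicates 1 to 3, against 3806, 5531 and 1484 CPM in wild type. Wild-type replicate 2 led its group in both, whereas wild-type replicate 3 had the lowest neuron sum of all 6 and more MEST than wild-type replicate 1. The part of the neuron markers in the MEST difference was not tested. By the root mean square difference of centred log2 CPM over the 6 libraries, the genes most like MEST were PCMT1, a protein repair methyltransferase, at 0.0771, PLCD4, a phospholipase C, at 0.0906 and NCOA7 at 0.1003. Their own log2 fold changes were 0.85, 0.90 and 0.91, none past the threshold. These distances are a description over 6 libraries. Genes chosen for their likeness to MEST have similar fold changes by that choice, so these values add no separate evidence.

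DIRAS3 encodes a small GTPase of the RAS superfamily that restrains growth and takes part in autophagy, and the gene is imprinted in human. Its level was 198, 255 and 328 CPM in deletion replicates 1 to 3, against 155, 213 and 103 CPM in wild type. The groups overlapped through wild-type replicate 2, which exceeded deletion replicate 1. On the log2 scale the difference was 0.73 (SE 0.29; edgeR quasi-likelihood adjusted p 0.211), with 0.44 (SE 0.25; adjusted p 0.332) without wild-type replicate 3 and 0.48 (SE 0.32; adjusted p 0.536) without deletion replicate 3. The ratio of deletion to wild type was 1.27 in prefix 14 and 1.84 in prefix 15. The authors' deposited table lists 1.67-fold at a false discovery rate of 0.0251, whereas DESeq2 gave an adjusted p of 0.12. In that deposited table only MEST and DIRAS3 of the members had a rate under 0.05, and PEG3 came next at 0.186. Among 13 tested RAS-like and autophagy genes, 9 were positive and 4 negative, and the groups were separated for 7, against 26.4% of all genes. The leading gene by p was DIRAS2, a neuronal GTPase gene, with 17.7, 33.4 and 21.6 CPM in the deletion against 10.2, 14.7 and 9.27 CPM in wild type, at 1.09 on the log2 scale (SE 0.27; edgeR quasi-likelihood adjusted p 0.0951). RASD1 and RRAS, both of the RAS superfamily, came next with the opposite sign, at -0.71 (SE 0.19) and -0.70 (SE 0.20), and their groups were separated too.

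PEG3 and PLAGL1 encode zinc finger proteins of the nucleus. PEG3, which is linked to maternal behaviour and growth in mouse, stood at 25.5, 28.5 and 42.2 CPM in deletion replicates 1 to 3, against 9.97, 20.5 and 28.7 CPM in wild type. Wild-type replicate 1 was the lowest of all 6, and the ranges met only where wild-type replicate 3 exceeded deletion replicates 1 and 2. For PEG3 the log2 fold change was 0.70 (SE 0.37; edgeR quasi-likelihood adjusted p 0.351). It was 0.38 (SE 0.26; adjusted p 0.541) without wild-type replicate 1, 0.42 (SE 0.37; adjusted p 0.665) without deletion replicate 3 and 1.00 (SE 0.37; adjusted p 0.165) without wild-type replicate 3. The ratio of deletion to wild type was 2.55 in prefix 14 and 1.44 in prefix 15. The genes nearest to PEG3 in pattern were SERPINA5, KCND2, a potassium channel gene, and SLC2A13, at 0.153, 0.166 and 0.186.

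PLAGL1, a transcription factor that in mouse acts on a network of other imprinted genes, was the member that lay lower in every deletion animal. It had 4.14, 3.15 and 4.41 CPM in deletion replicates 1 to 3, against 5.63, 5.69 and 4.82 CPM in wild type. The gap between the groups was narrow, since deletion replicate 3 and wild-type replicate 3 were close. Means were 3.90 ± 0.664 CPM in the deletion and 5.38 ± 0.485 CPM in wild type (SD, n = 3 each), and the log2 fold change was -0.46 (SE 0.21; edgeR quasi-likelihood adjusted p 0.282). The exact two-sided permutation test gave p = 0.1, the smallest possible with these group sizes. The ratio was 0.736 in prefix 14 and 0.719 in prefix 15. For PLAGL1 the authors' deposited table lists a signed fold of -1.35 at a false discovery rate of 0.642. Its family members PLAG1 and PLAGL2 gave -0.33 (SE 0.33) and -0.28 (SE 0.21), with overlapping groups.

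PEG10 and SGCE are neighbours in the pig RefSeq gene order. In human and mouse they are transcribed in opposite directions from a shared imprinted control region, which makes both paternally expressed. PEG10 derives from a retrotransposon gag and pol sequence, and its protein has been reported to be held down by UBE3A. SGCE encodes epsilon-sarcoglycan, a membrane protein whose loss causes myoclonus dystonia in people. PEG10 RNA stood at 54.2, 78.2 and 123 CPM in deletion replicates 1 to 3, against 61.6, 66.8 and 78.0 CPM in wild type. Deletion replicate 3 was far above the rest and deletion replicate 1 was the lowest of all. As a log2 fold change this was 0.31 (SE 0.28; edgeR quasi-likelihood adjusted p 0.619), with an interval of -0.34 to 0.95, and it was -0.09 without deletion replicate 3. Prefix 14 gave a ratio of 0.88 and prefix 15 one of 1.39.

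SGCE varied less. It had 59.5, 53.1 and 51.5 CPM in deletion replicates 1 to 3, against 68.5, 49.4 and 62.2 CPM in wild type, and the deletion values lay inside the wild-type range. Its log2 fold change was -0.13 (SE 0.14; edgeR quasi-likelihood adjusted p 0.686), with an interval of -0.47 to 0.20. The ratio of PEG10 to SGCE TPM within a library was 0.476, 0.77 and 1.25 in deletion replicates 1 to 3, against 0.47, 0.706 and 0.655 in wild type, so the pair did not keep a fixed proportion. The ratio averaged 0.832 ± 0.391 in the deletion and 0.611 ± 0.124 in wild type (SD, n = 3 each; exact two-sided permutation p = 0.4). It too was chosen after the values were seen.

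DLK1 encodes a membrane protein related to the Notch ligands that holds back adipocyte differentiation. It was the most variable member, with an SD of log2 CPM over the 6 libraries larger than that of 94.8% of tested genes. DLK1 had 20.5, 24.1 and 39.5 CPM in deletion replicates 1 to 3, against 33.4, 36.9 and 6.56 CPM in wild type. Wild-type replicate 3 lay far below the other 5 animals. Its log2 fold change was 0.13 (SE 0.57; edgeR quasi-likelihood adjusted p 0.93), and without wild-type replicate 3 it was -0.39 (SE 0.28; adjusted p 0.441). Prefix 14 gave a ratio of 0.615 and prefix 15 one of 1.46. Nearest to DLK1 in pattern were CLEC2L at 0.235, PDIA2 at 0.236 and HOXC6, a homeobox gene of the cervical to thoracic cord, at 0.242. HOXC6 stood at 8.19, 12.9 and 12.6 CPM in deletion replicates 1 to 3, against 12.3, 13.6 and 2.98 CPM in wild type. Both genes were lowest in wild-type replicate 3, which follows from choosing HOXC6 for its likeness to DLK1 in these libraries.

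GRB10, an adaptor that dampens signalling from the insulin and IGF receptors, was the most even member. It had 17.9, 17.8 and 18.3 CPM in deletion replicates 1 to 3, against 18.5, 19.8 and 16.0 CPM in wild type, and its SD exceeded that of 5.67% of tested genes. The log2 fold change was -0.01 (SE 0.12; edgeR quasi-likelihood adjusted p 0.981), its interval ran from -0.30 to 0.28, and its sign turned with no filter on low counts. The ratio was 0.964 in prefix 14 and 1.01 in prefix 15.

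Single animals led several members at once. Deletion replicate 3 was the highest of all 6 animals for 4 genes, namely DIRAS3, PEG3, PEG10 and DLK1, and the highest of its group for 6. Wild-type replicate 3 was the lowest of all 6 for 3 genes, DIRAS3, DLK1 and GRB10. The neuron sum did not share the first of these patterns, as deletion replicate 3 had the lowest neuron sum of its group. Its markers were divided, however. RBFOX3 and SYT1 were highest of all 6 in deletion replicate 3, at 16.1 and 87.5 CPM, and the other neuron markers in deletion replicate 2. For RBFOX3 the lead over deletion replicate 2, at 16.0 CPM, was slight. The part of neurons in these patterns was not tested.

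The genes beside the members were read from the RefSeq order of assembly Sscrofa11.1, used for names only. Around the 10 listed genes the closest named genes, at most 2 per side and leaving out the 8, came to 36, of which 25 were tested. COL1A2, the collagen gene in the PEG10 and SGCE neighbourhood, fell by 2.35 (SE 0.22) on the log2 scale (edgeR quasi-likelihood adjusted p 0.0253), and COL1A2 is also one of the fibroblast markers. No other neighbour passed, and the median over the 25 was 0.16. The groups were separated for 10 of the 25, against 26.4% of all genes. Next to PEG10 lay PPP1R9A, which encodes the actin-binding neurabin, at 0.32 (SE 0.27), and next to SGCE lay CASD1 at 0.16 (SE 0.13). Beside MEST, COPG2 and CEP41 gave 0.19 (SE 0.14) and 0.25 (SE 0.13). On either side of DIRAS3, WLS, a carrier of Wnt proteins, gave -0.43 (SE 0.11; edgeR quasi-likelihood adjusted p 0.0947) and GNG12 gave 0.36 (SE 0.17), so the adjoining genes did not share a sign.

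The DLK1 domain held the largest positive value of these neighbours. RTL1, a retrotransposon-derived gag gene expressed from the paternal allele in mouse and sheep, had 5.54, 8.97 and 4.49 CPM in deletion replicates 1 to 3, against 3.17, 3.69 and 0.643 CPM in wild type. The groups did not overlap, and the 6 animals ranked for RTL1 exactly as they did for the neuron sum. The part of the neuron markers in this difference was not tested. RTL1 gave a log2 value of 1.34 (SE 0.57; edgeR quasi-likelihood adjusted p 0.244). BEGAIN, on the far side of DLK1, gave 0.57 (SE 0.24; edgeR quasi-likelihood adjusted p 0.246) and its groups did not overlap either.

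**Figure D3:**
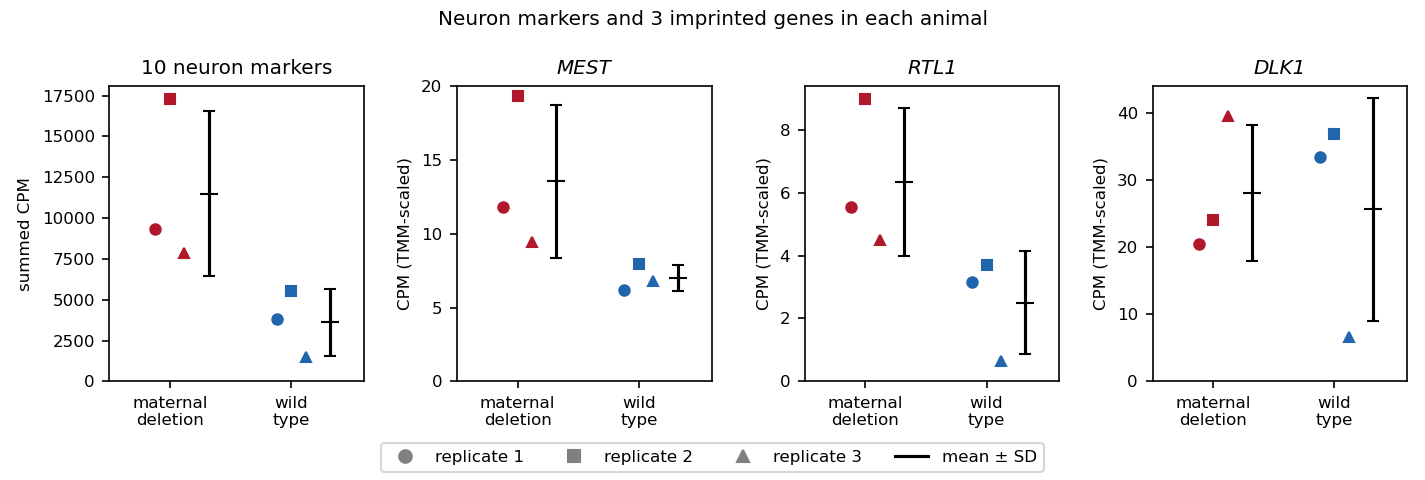
Summed CPM of 10 neuron markers and CPM of MEST, RTL1 and DLK1 in each animal, deletion left of wild type, with mean and SD beside the points. Deletion replicate 2 is highest for the neuron sum, MEST and RTL1, and wild-type replicate 3 is lowest for the neuron sum, RTL1 and DLK1.

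A wider list of 54 genes reported as imprinted in human, mouse or pig had 26 tested members. None passed the threshold by edgeR's quasi-likelihood test, and 7 of the 26 had an unadjusted p under 0.05, where 20.2% of all genes stood. Signs were even, 13 positive and 13 negative, with a median of -0.02, and the groups were separated for 7 of the 26, near the 26.4% of all genes. TFPI2, a secreted protease inhibitor gene that shares the wider PEG10 domain, came nearest. It had 4.04, 6.56 and 7.91 CPM in deletion replicates 1 to 3, against 18.3, 14.6 and 13.6 CPM in wild type, or -1.32 on the log2 scale (SE 0.26; edgeR quasi-likelihood adjusted p 0.0598). The meninges and fibroblast sum was lower in the same animals, and its part was not tested. KCNQ1, a potassium channel gene, was barely detected with 8, 2 and 5 reads in deletion replicates 1 to 3, against 18, 27 and 16 reads in wild type (log2 fold change -2.01, SE 0.52; edgeR quasi-likelihood adjusted p 0.0959). TRAPPC9, of vesicle trafficking, gave 0.38 (SE 0.12; edgeR quasi-likelihood adjusted p 0.124). The growth genes IGF2R and CDKN1C, a receptor that clears IGF2 and a cell cycle inhibitor, gave -0.05 (SE 0.10) and -0.05 (SE 0.20). Both were chosen after their values were seen. Of the listed genes with a row, 7 had too few reads to be tested.

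**Figure D4:**
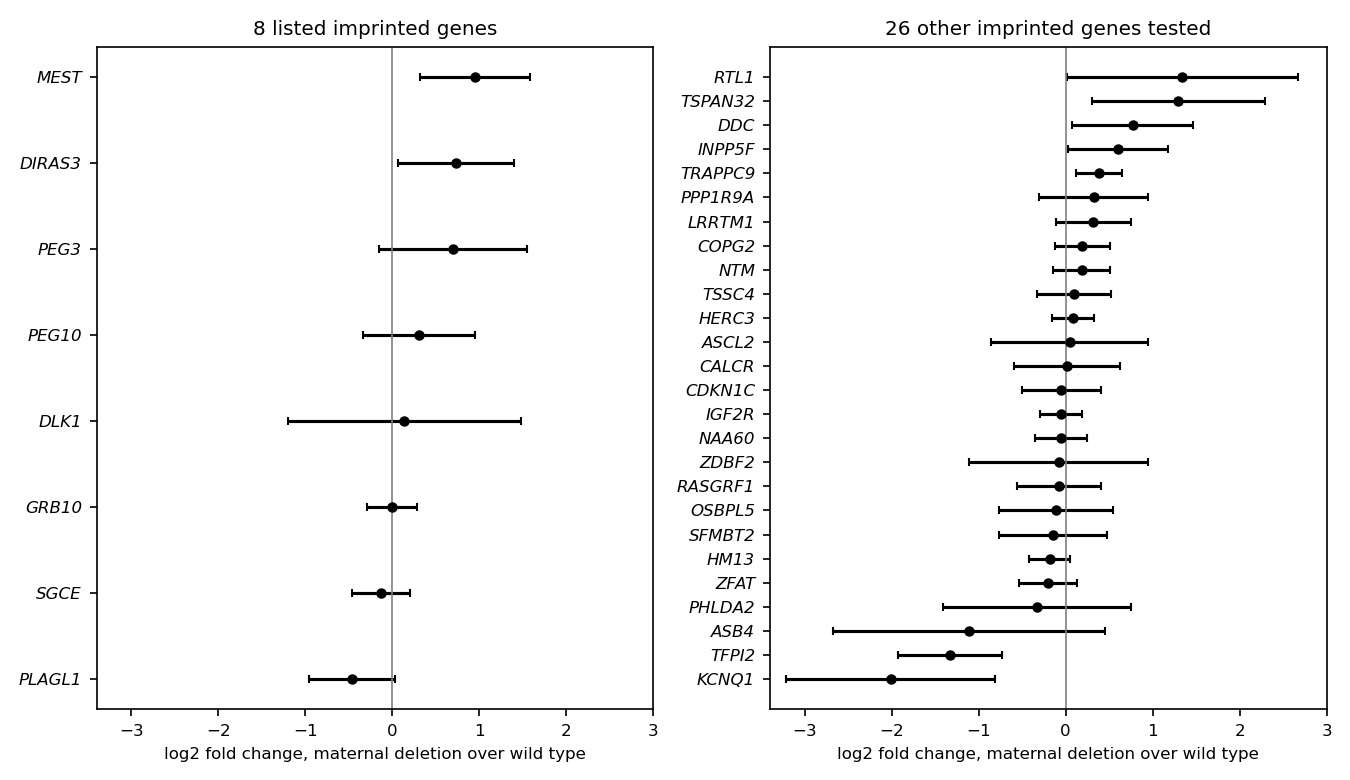
Log2 fold change, maternal deletion over wild type, with 95% intervals from edgeR's quasi-likelihood fit, for the 8 genes (left) and for 26 other imprinted genes (right). In the left panel the unadjusted intervals of MEST and DIRAS3 lie above 0, and no gene in either panel passed the adjusted threshold.

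Partners of the members were read from further lists, and none of them held a gene past the threshold by edgeR's quasi-likelihood test. Over all tested genes 56.7% were positive and 20.2% had an unadjusted p under 0.05, with a median of 0.05. In the sarcoglycan and dystrophin complex around SGCE, 8 of 10 genes were negative with a median of -0.48, and 6 had an unadjusted p under 0.05. SGCA, the alpha-sarcoglycan of muscle, led with -1.29 (SE 0.29; edgeR quasi-likelihood adjusted p 0.0807), then SNTB1 with -0.66 (SE 0.17) and dystroglycan, DAG1, with -0.57 (SE 0.16). The smooth muscle and mural sum was lower in the same animals, and its part was not tested. In the Notch pathway, the relatives of DLK1, 13 of 17 were negative with a median of -0.24. Its leading gene HEYL, a Notch target of vessel walls, had 4.84, 4.09 and 6.44 CPM in deletion replicates 1 to 3, against 30.2, 37.2 and 11.6 CPM in wild type (log2 fold change -2.35, SE 0.42; edgeR quasi-likelihood adjusted p 0.0543). The smooth muscle and mural sum was 262, 202 and 261 CPM in deletion replicates 1 to 3, against 1536, 2739 and 502 CPM in wild type, so HEYL and this sum ranked alike within wild type. The part of these markers in the Notch values was not tested.

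Around PEG10, all 8 tested genes of gag origin or of the ubiquilin family were positive, with a median of 0.39, while 56.7% of all genes were positive. RTL1 is one of the 8, and the neuron sum was higher in the same animals. The part of the neuron markers in these values was not tested. PNMA2 gave 0.82 (SE 0.20; edgeR quasi-likelihood adjusted p 0.0914), and UBQLN1, a shuttle to the proteasome, gave 0.36 (SE 0.13). Insulin and IGF receptor signalling around GRB10 had 10 positive and 6 negative genes with a median of 0.03, and GIGYF1, which binds GRB10, gave -0.27 (SE 0.10). In the Gs and cAMP pathway 20 of 26 were positive with a median of 0.18, where GNB5 gave 0.54 (SE 0.14) and ADCY4 gave -1.01 (SE 0.26). The endoplasmic reticulum calcium list split 6 and 6 by sign. By edgeR's quasi-likelihood test 6 of its 12 genes had an unadjusted p under 0.05, against 20.2% of all genes. Its 3 leading genes by p were all lower, ORAI1 at -0.55 (SE 0.18), ATP2A3 at -0.90 (SE 0.30) and ITPR3 at -0.48 (SE 0.17). Hydrolase paralogs of MEST were positive in 11 of 12, EPHX4 leading with 0.86 (SE 0.33). The negative gene, EPHX1, came next by p at -0.38 (SE 0.16), with its groups separated. Only these 2 had an unadjusted p under 0.05 by edgeR's quasi-likelihood test. The PLAG list, which also holds genes outside the family, was negative in 4 of 5. Its leading gene by p, ADCYAP1R1, was the positive one at 0.38 (SE 0.18). Genes that write or keep DNA methylation, the mark of imprints, had 8 positive and 11 negative values with a median of -0.02. Among them DNMT3B, a DNA methyltransferase, had 1.20, 0.892 and 0.778 CPM in deletion replicates 1 to 3, against 1.76, 2.26 and 1.79 CPM in wild type (log2 fold change -1.02, SE 0.32; edgeR quasi-likelihood adjusted p 0.136).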

How the data were processed

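Poly(A)-selected stranded libraries were sequenced as paired reads of 150 bases, per the labels' protocols. Not given in the sources used here are the aligner, the counter, the annotation release and the build. Per the file headers, the authors deposited the count of exon reads per gene (blank for no reads, read as 0), RPKM, TPM and a signal headed CPM, whose sums of 917605 to 1075791 show a factor per library. RPKM and that signal were not used. The authors' deposited table holds signed folds (a score), p-values and false discovery rates.

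Counts were filtered by filterByExpr, TMM-scaled and tested using edgeR 4.0.16 (R 4.3.3; robust quasi-likelihood, Benjamini-Hochberg over 14566 genes), after tests on simulated data. DESeq2 1.42.0 and limma 3.58.1 voom were alternatives. Standard errors come from the quasi-likelihood statistic. A floor of 3 reads equals 0.133 to 0.175 CPM on unscaled totals (before TMM) and covers counting error only. No library pair agreed within sampling noise (chi-square per degree of freedom at least 28.1 over 15 pairs). Samples are separate animals per the labels, and replicate numbers follow accession order. The ID prefix (14 or 15) has no stated meaning and served as a possible batch.

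Members and lists were chosen with earlier results of these data known. The text names all members, up to 3 genes of each list by p, and, for the 3 most variable members, the 3 genes nearest in centred log2 CPM (prior count 2) with a mean of at least 1.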

Additional observations from a re-analysis of the deposited data

How the results depend on the processing

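Over 15 alternatives for each of the 8 genes, 1 of 120 fits passed the threshold, MEST by DESeq2 (0.91), which makes members changed in maternal deletion, higher, 1 against 0. The direction turned in 7 fits and in 3 genes. GRB10 was 0.0066 with no filter, 0.0083 without wild-type replicate 1, 0.047 without wild-type replicate 2 and 0.0015 without deletion replicate 2. PEG10 was -0.093 without deletion replicate 3, and DLK1 was -0.39 without wild-type replicate 3 and -0.26 without deletion replicate 3. Leaving out 1 library gave 0.61 to 1.11 for MEST, 0.44 to 0.99 for DIRAS3, 0.38 to 1.00 for PEG3, -0.60 to -0.33 for PLAGL1, -0.27 to -0.03 for SGCE, -0.15 to 0.05 for GRB10, -0.09 to 0.55 for PEG10 and -0.39 to 0.47 for DLK1. Members past the threshold stayed at 0 in each direction in all leave-one-out fits by edgeR, in which 0 to 759 of all genes passed.

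Over all tested genes, higher genes numbered 26, and 9 with RLE scaling, 6 with total counts, 77 with no filter, 569 with DESeq2, 94 with voom, 0 with the ID prefix as a block and 0 in prefix 15 alone, with a range of 0 to 120 when 1 library was left out. Lower genes numbered 123, and 793 with DESeq2, 344 with voom, 3 with the prefix block and 0 in prefix 15 alone, with a range of 0 to 639 when 1 library was left out. Both maxima came without wild-type replicate 3. The UBE3A call was lost with the prefix block (adjusted p 0.0526), in prefix 15 alone (0.358) and without wild-type replicate 1 (0.152) or deletion replicate 1, 2 or 3 (0.0728, 0.0886 and 0.0822), while its log2 fold change stayed between -1.51 and -1.33. The causes were not tested.

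Unique exon reads could not be tried, since the columns used hold total exon reads. No paired analysis was possible because the labels give no replicate numbers that pair animals across genotypes. At 60 to 131 reads per library for PLAGL1 and 106 to 369 for MEST, counting error limits these 2 genes most.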
